A study of Mus musculus with 6 samples.

Results

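The glycolysis, pyruvate and TCA entry genes are 34 genes that carry carbon from glucose uptake to the first steps of the tricarboxylic acid (TCA) cycle. They were taken by gene symbol from 54429 rows of read counts, and all 34 passed the filter on low counts. The counts came from bulk RNA of mouse prefrontal cortex, in 3 libraries of cortex injected with AAV9 carrying green fluorescent protein (GFP) and 3 of cortex injected with AAV9 carrying a short hairpin RNA (shRNA) against Kmt5b. AAV9 is an adeno-associated virus used to bring genes into brain cells, and Kmt5b is a histone H4 methyltransferase linked to autism. Both groups thus received a virus, and neither the promoter of the virus nor the cells it reached are given in the sources used here. The mice are C57BL6/J in the labels and a cross of C57BL/6 with C3H in the design text, aged 6 to 8 weeks. The design text counts 3 mice with the hairpin and 2 GFP mice, so the 3 GFP libraries may not all come from separate animals, and p-values measure the spread between these libraries only.

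Neurons and glia burn glucose as their main fuel. Glycolysis splits it into pyruvate in the cytosol, lactate dehydrogenase turns pyruvate into lactate and back, monocarboxylate transporters move lactate between cells, and the pyruvate dehydrogenase complex feeds carbon to the TCA cycle in mitochondria. Most steps have several isozymes, which are related proteins for the same reaction made from separate genes and used to different extents in neurons and astrocytes. Several glycolytic genes also have processed copies in the genome, that is, intronless DNA copies of their spliced messenger RNA, and a read from the exons of such a gene can match a copy as well as the gene itself.

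Depth ran from 29490771 counts (GFP replicate 2) to 74723284 (GFP replicate 3), with 48828638 to 57486203 in the libraries labelled Kmt5b shRNA. CPM below is the count scaled to the library size after TMM normalisation. Kmt5b itself was at 86.5, 79.7 and 80.9 CPM in the GFP libraries and at 68.5, 80.3 and 63.9 CPM in the Kmt5b shRNA libraries. The groups overlapped, since the library labelled Kmt5b shRNA replicate 2 lay within the GFP range. The log2 fold change of Kmt5b was -0.22 ± 0.10 (SE, edgeR quasi-likelihood adjusted p = 0.303), so the directions given below rest on labels alone. Neuron markers were present, as in any brain tissue, and no marker of the cortical region was tested: 8 of them summed to between 5981.8 and 7443.2 CPM in the 6 libraries, and none of them was at 0.

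Of the 34 genes, 5 rose and 0 fell in the Kmt5b shRNA libraries at an edgeR adjusted p under 0.05, where log2 fold changes are Kmt5b shRNA against GFP throughout. The 5 were Gapdh, Pgk1, Pgam1, Eno1 and the lactate and pyruvate transporter Slc16a7. Gapdh, Pgk1, Pgam1 and Eno1 encode enzymes of the 4 consecutive steps of lower glycolysis between triose phosphate and phosphoenolpyruvate. These 4 were called in every fit that included them. All these fits start from the same deposited counts, so they do not test how reads matching several places were counted. Over all 24419 rows tested, 2.77% were called higher and 5.69% lower. At an unadjusted p under 0.05, 7 members were higher and 3 lower, and DESeq2 called 6 higher and 1 lower, the lower one being Pdk4. The median log2 fold change of the members was -0.06, against -0.02 over all rows tested. Each of Gapdh, Pgk1, Pgam1 and Eno1 has intronless copies, and the copies took a smaller share of the counts in the Kmt5b shRNA libraries than in the GFP libraries.

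Every Kmt5b shRNA library lay above every GFP library for 7 members, against 9.84% of all rows tested, and below for 4 members, against 12.7% of all rows. The remaining 23 members overlapped between the groups. In bulk tissue, fewer cells of a type and less RNA per cell cannot be told apart, so a level here is that of the whole piece of cortex.

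**Figure D1:**
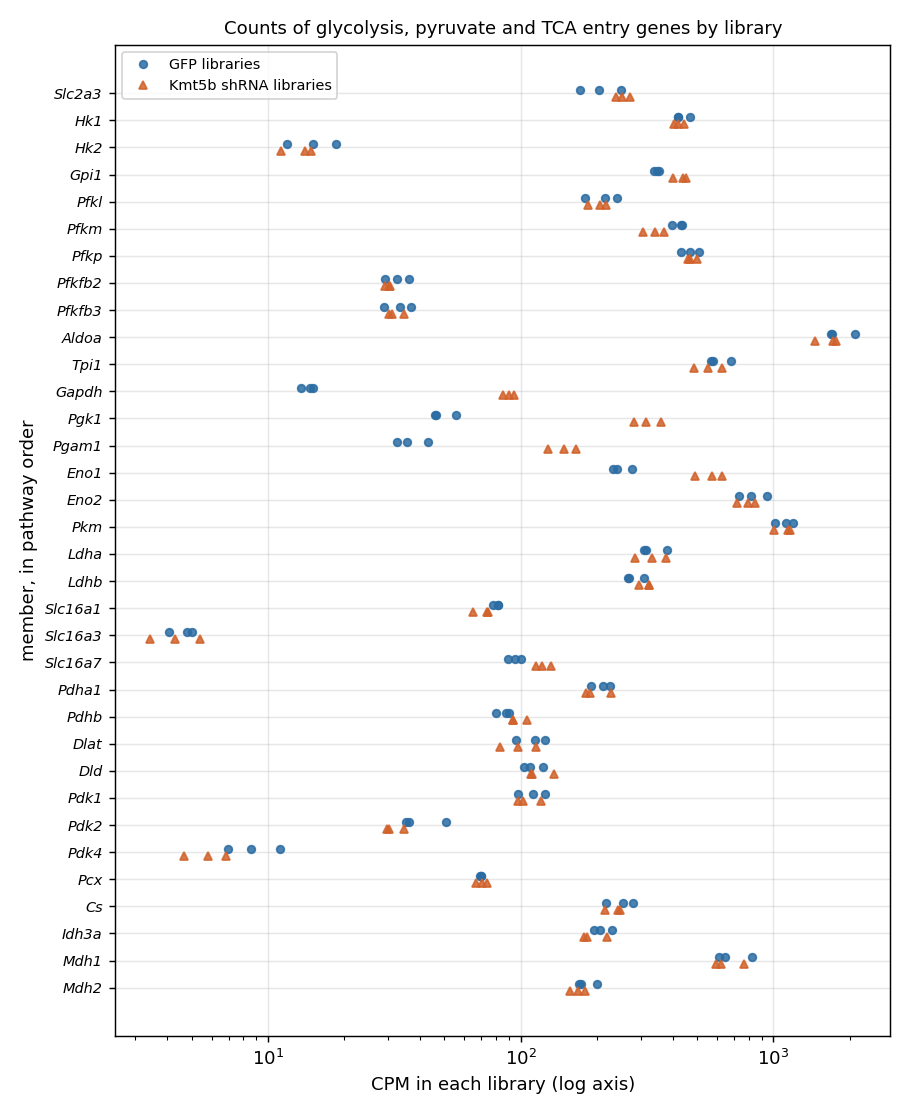
CPM of each of the 34 genes (log axis) in the 3 GFP libraries (circles) and the 3 Kmt5b shRNA libraries (triangles), in pathway order. Gapdh, Pgk1, Pgam1 and Eno1 form the block in which the groups lie far apart, and 23 genes overlap.

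Gapdh, glyceraldehyde-3-phosphate dehydrogenase, which oxidises triose phosphate and makes NADH, lies on chromosome 6 from 125161715 to 125166467 (mm10, minus strand). Its own row held 14.7, 15.1 and 13.6 CPM in the GFP libraries and 94.3, 89.6 and 85.3 CPM in the Kmt5b shRNA libraries. The groups lay far apart, with little spread inside either. The log2 fold change was 2.63 ± 0.10 (SE, n = 3 each, edgeR adjusted p = 3.29e-11), a 6.21-fold rise with a 95% interval from 5.34 to 7.21.

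Per kilobase of exon, the GFP libraries held Gapdh at 3.50 ± 0.189 CPM per kb (SD, n = 3), while Tpi1, the enzyme just before it, was at 220.6 ± 21.9 CPM per kb. In the Kmt5b shRNA libraries Gapdh was at 21.7 ± 1.08 CPM per kb and Tpi1 at 201.0 ± 25.5 CPM per kb. The row of Gapdh was thus far below that of its neighbour in the pathway in both groups. Gapdh has 173 intronless copies in the GENCODE M21 annotation, more than any other member, of which 171 have a row in the counts and 52 passed the filter.

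The copies of Gapdh together held 28.2, 29.9 and 34.5 CPM in the GFP libraries and 46.6, 40.3 and 42.0 CPM in the Kmt5b shRNA libraries. They took 68.0% ± 3.29 of the counts on Gapdh and its copies in the GFP libraries and 32.4% ± 1.15 in the Kmt5b shRNA group (SD, n = 3 each). Both groups therefore had a large part of the counts of this sequence on copies, and the GFP libraries had the larger part. With the copies' counts added to the gene, the sums were 43.1, 45.3 and 48.4 CPM against 140.1, 129.3 and 126.5 CPM. The groups still did not overlap, and the log2 fold change came to 1.53 ± 0.10 (SE, edgeR adjusted p = 9.74e-08).

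The copies of Gapdh did not move together: 5 rose, 5 fell and 33 of the 52 tested had a log2 fold change below 0, with a median of -0.23. The copy with the highest mean over all 6 libraries, Gm5559, owed that rank to the Kmt5b shRNA libraries, so its fold does not stand for the copies in general. It was at 0.120, 0.0976 and 0.166 CPM in the GFP libraries and at 14.2, 13.1 and 12.4 CPM in the Kmt5b shRNA libraries (log2 fold change 6.59 ± 0.24 (SE), edgeR adjusted p = 1.60e-11). In the GFP libraries Gm11960 held more counts, at 2.33 ± 0.389 CPM against 1.68 ± 0.136 CPM in the Kmt5b shRNA group, and did not pass (log2 fold change -0.47 ± 0.25 (SE), edgeR adjusted p = 0.362). Gm7336 rose, from 0.0468 ± 0.0449 to 5.18 ± 0.541 CPM (SD, n = 3 each). Gm13292 fell from 1.79 ± 0.232 to 0.435 ± 0.0345 CPM, a log2 fold change of -2.04 ± 0.31 (SE, edgeR adjusted p = 0.000239). Gm11960, Gm7336 and Gm13292 were chosen after their values were seen. Over the coding sequence of Gapdh, of 999 bases, Gm5559 had 1 substitution, Gm7336 had 0 and Gm13292 had 5. Among these 3, copies that rose and a copy that fell were thus both nearly identical to the gene, and a read from most stretches of the coding sequence cannot be assigned between them by sequence. The stretches below were instead placed to hold a difference, so a read over the base in capitals can tell that copy from the gene. They are given for Gm5559 (chr5:95861714-95862715, plus strand), at coding bases 365 to 454, where its only substitution lies. For Gm13292 (chr2:11409031-11410030, minus strand) coding bases 43 to 132 are given, with 1 of its 5 substitutions. Reads from the identical bases around these stretches carry no such difference. The stretches were read from GENCODE M21 transcripts (mm10), run 5′ to 3′ on the coding strand, and differences are in capitals.
Gapdh 365 to 454: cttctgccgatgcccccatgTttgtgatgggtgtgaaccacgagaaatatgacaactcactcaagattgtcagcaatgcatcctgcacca
Gm5559: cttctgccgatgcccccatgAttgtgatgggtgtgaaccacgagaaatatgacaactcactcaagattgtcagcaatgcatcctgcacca
Gapdh 43 to 132: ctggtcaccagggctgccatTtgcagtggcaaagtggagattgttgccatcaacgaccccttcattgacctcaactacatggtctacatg
Gm13292: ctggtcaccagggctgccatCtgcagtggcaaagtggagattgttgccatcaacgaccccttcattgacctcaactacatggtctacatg

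Pgk1, phosphoglycerate kinase, makes the first ATP of glycolysis and lies on the X chromosome from 106187100 to 106203699 (plus strand). It was at 55.5, 46.2 and 45.8 CPM in the GFP libraries and at 313.6, 358.6 and 281.8 CPM in the Kmt5b shRNA libraries. No library of one group came near the other group. Its log2 fold change of 2.69 ± 0.12 (SE, edgeR adjusted p = 2.45e-10) was the largest of the 34. It has 4 copies, of which 2 have a row in the counts, and these took 7.68% ± 0.708 of the counts on gene and copies in the GFP libraries and 0.454% ± 0.0704 in the Kmt5b shRNA group (SD, n = 3 each). The most abundant copy, Pgk1-rs7 on chromosome 12, matched 1250 of the 1251 coding bases without a substitution or gap, and fell from 4.0 ± 0.870 to 1.03 ± 0.537 CPM. Adding the copies moved little: the log2 fold change of Pgk1 was then 2.57 ± 0.12 (SE, edgeR adjusted p = 4.61e-09).

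Pgam1, phosphoglycerate mutase, which moves the phosphate group within phosphoglycerate, lies on chromosome 19 from 41911923 to 41918660 (plus strand). Its row held 43.2, 35.4 and 32.6 CPM in the GFP libraries and 148.0, 165.6 and 127.9 CPM in the Kmt5b shRNA libraries. The groups did not overlap, and the log2 fold change came to 1.99 ± 0.13 (SE, edgeR adjusted p = 1.77e-08). Its 3 copies showed the opposite picture, with 62.5, 53.5 and 55.5 CPM against 1.32, 1.61 and 1.11 CPM. In the GFP libraries 60.8% ± 2.02 of the counts on Pgam1 and its copies were thus on copies, against 0.903% ± 0.0549 in the Kmt5b shRNA group (SD, n = 3 each). Nearly all of these counts were on Pgam1-ps2 (chr7:27469771-27470535, minus strand), which fell by 5.66 on the log2 scale (edgeR adjusted p = 3.21e-12).

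Pgam1-ps2 is identical to Pgam1 over all 762 bases of the coding sequence, so reads from that part cannot be told apart by sequence. The first 90 coding bases of both, read from GENCODE M21 transcripts, are shown because the copy held more counts than the gene in every GFP library.
Pgam1 1 to 90: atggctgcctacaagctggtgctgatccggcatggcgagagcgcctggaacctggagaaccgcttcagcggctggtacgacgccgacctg
Pgam1-ps2: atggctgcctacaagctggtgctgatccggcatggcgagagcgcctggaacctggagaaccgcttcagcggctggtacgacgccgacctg
With the copies added, the sums for Pgam1 were 106.1, 89.5 and 88.5 CPM against 148.6, 166.3 and 128.3 CPM. The groups still lay apart, and the rise was 1.56-fold with a 95% interval from 1.32 to 1.85 (log2 fold change 0.64 ± 0.11 (SE), edgeR adjusted p = 0.00528), against 3.97-fold for the row of the gene alone.

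Eno1, the enolase of most tissues, which makes phosphoenolpyruvate, lies on chromosome 4 from 150236721 to 150248879 (plus strand). It was at 276.2, 240.2 and 231.1 CPM in the GFP libraries and at 570.5, 626.0 and 487.8 CPM in the Kmt5b shRNA libraries. The lowest Kmt5b shRNA library lay well above the highest GFP library, and the log2 fold change came to 1.17 ± 0.12 (SE, edgeR adjusted p = 2.77e-06). Its 3 intronless copies took 1.43% ± 0.145 of the counts in the GFP libraries and 0.114% ± 0.0531 in the Kmt5b shRNA libraries, and adding them gave 1.14 ± 0.12 (SE, edgeR adjusted p = 2.51e-05). Further genes similar to Eno1 do not meet the definition of an intronless copy. Among these, Eno1b fell from 38.0 ± 3.71 to 1.59 ± 0.646 CPM and Gm4735 from 42.3 ± 5.90 to 2.01 ± 0.444 CPM (SD, n = 3 each). With a wider definition that takes these in, chosen after the data were seen, the sums for Eno1 were 374.4, 325.7 and 311.0 CPM against 573.3, 627.6 and 489.4 CPM. The groups did not overlap on this sum either, and the log2 fold change came to 0.74 ± 0.12 (SE, edgeR adjusted p = 0.00185). The wider definition gave 1.26 ± 0.09 for Gapdh (SE, edgeR adjusted p = 7.28e-07) and left Pgk1 at 2.57 and Pgam1 at 0.64. The size of the rise of Gapdh, Pgam1 and Eno1 is therefore uncertain, since it depends on which copies are counted with the gene. Pgk1 moved little, but only 2 of its 4 intronless copies have a row in the counts. No sum of rows can restore reads left out for matching several places, and whether any were is not given in the sources used here. The sums therefore do not settle the size of the rise of Pgk1, or the direction for any of the 4 genes.

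**Figure D2:**
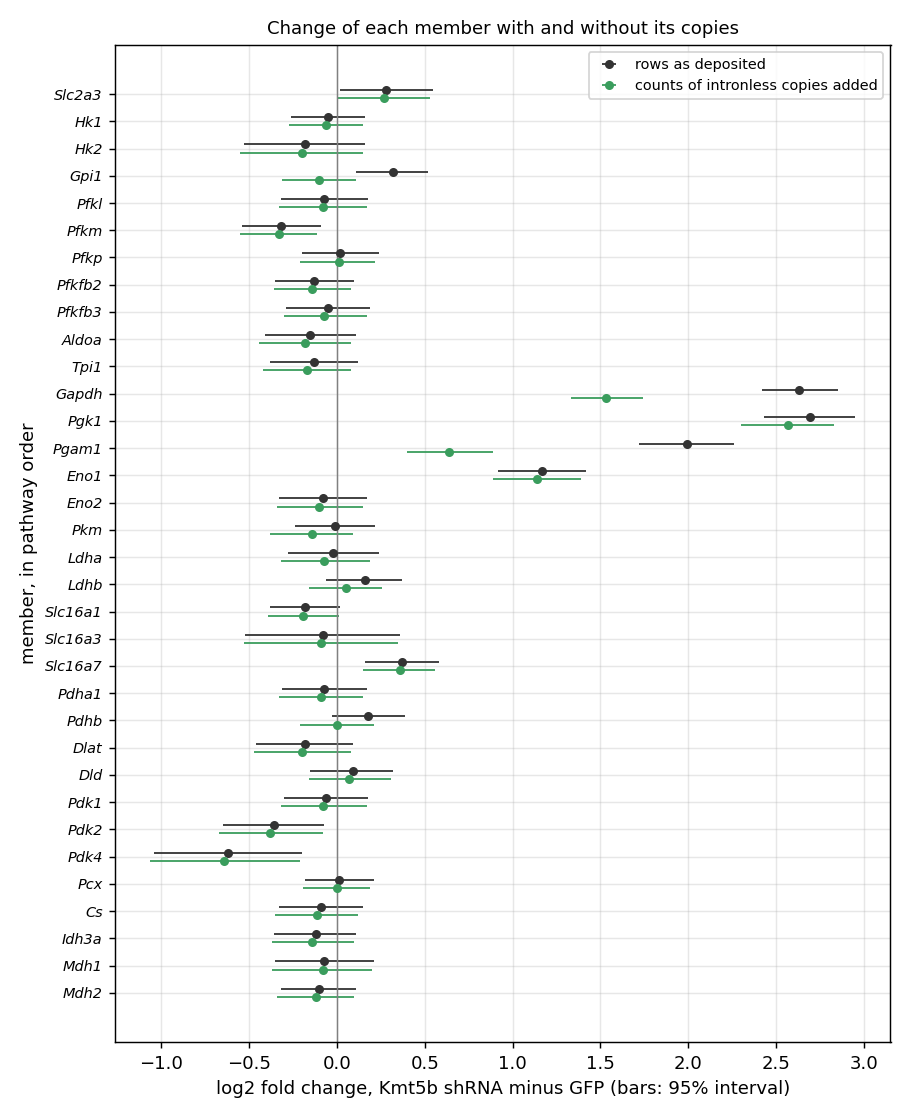
Log2 fold change of each gene, Kmt5b shRNA minus GFP, with its 95% interval, from the rows as deposited (black) and after the counts of intronless copies were added (green). Gapdh moves from 2.63 to 1.53 and Pgam1 from 1.99 to 0.64, Gpi1 crosses 0, and Pgk1 and Eno1 hardly move.

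The steps before this block did not pass the test. Slc2a3, the neuronal glucose transporter, was at 249.1, 172.2 and 203.4 CPM in the GFP libraries and at 251.4, 270.9 and 237.7 CPM in the Kmt5b shRNA libraries. The groups overlapped through GFP replicate 1, and the log2 fold change came to 0.28 ± 0.12 (SE, edgeR adjusted p = 0.247). Without GFP replicate 1 it was 0.43 (edgeR adjusted p = 0.0190). Of the hexokinases, which trap glucose in the cell, Hk1 lay between 418.0 and 469.5 CPM in the GFP libraries and between 402.7 and 441.3 CPM in the Kmt5b shRNA libraries. Hk2 was low, between 11.3 and 18.6 CPM over all 6 libraries, and both overlapped between the groups.

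Gpi1, glucose phosphate isomerase, lies on chromosome 7 from 34201330 to 34230336 (minus strand). Its row held 353.3, 345.8 and 337.1 CPM in the GFP libraries and 439.5, 451.3 and 400.6 CPM in the Kmt5b shRNA libraries, without overlap. This gave a log2 fold change of 0.32 ± 0.10 (SE, edgeR adjusted p = 0.0593), just short of the threshold. Gpi1 was called higher with DESeq2 (adjusted p = 0.0115), with upper-quartile scaling (edgeR adjusted p = 0.0317) and without Kmt5b shRNA replicate 3 (edgeR adjusted p = 0.0490). Its single copy, Gm1840, a processed pseudogene at chr8:5639580-5641011 (plus strand), held 119.2, 108.1 and 110.4 CPM in the GFP libraries and 1.09, 0.732 and 1.20 CPM in the Kmt5b shRNA libraries. That was 24.6% ± 0.715 of the counts on both in the GFP libraries and 0.236% ± 0.0695 in the Kmt5b shRNA group (SD, n = 3 each). With Gm1840 added the direction turned: the sums were 474.5, 456.6 and 449.8 CPM against 438.2, 449.8 and 399.5 CPM, a log2 fold change of -0.10 ± 0.10 (SE, edgeR adjusted p = 0.754). Over coding bases 178 to 267, shown as a case where the direction depends on the copy, the 2 sequences from GENCODE M21 transcripts differ at the bases in capitals.
Gpi1 178 to 267: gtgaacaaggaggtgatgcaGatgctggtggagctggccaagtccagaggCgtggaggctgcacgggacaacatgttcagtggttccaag
Gm1840: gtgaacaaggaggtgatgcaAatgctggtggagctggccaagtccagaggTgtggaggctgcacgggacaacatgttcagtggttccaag

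The phosphofructokinases catalyse the committed step of glycolysis. Pfkm, on chromosome 15 from 98092589 to 98132451 (plus strand), was at 433.4, 430.4 and 395.7 CPM in the GFP libraries and at 339.7, 368.0 and 303.9 CPM in the Kmt5b shRNA libraries. Every Kmt5b shRNA library lay below every GFP library, and the log2 fold change came to -0.32 ± 0.10 (SE, edgeR adjusted p = 0.0853). Pfkm has no intronless copy, and among genes that share no sequence its value was -0.32 ± 0.09 (SE, edgeR adjusted p = 0.112). Pfkl ranged from 179.5 to 240.1 CPM and Pfkp from 432.0 to 505.4 CPM over the 6 libraries, both with overlap and with log2 fold changes of -0.07 ± 0.12 and 0.02 ± 0.10 (SE). The bifunctional enzymes Pfkfb2 and Pfkfb3, which set the level of the sugar phosphate that activates phosphofructokinase, lay between 28.8 and 37.0 CPM and overlapped.

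Aldolase and triose phosphate isomerase, which split the sugar and interconvert its parts, were among the most abundant members per kilobase. Aldoa was at 2106.1, 1690.0 and 1706.1 CPM in the GFP libraries and at 1727.0, 1772.8 and 1454.1 CPM in the Kmt5b shRNA libraries, and Tpi1 at 676.9, 577.4 and 567.9 CPM against 551.0, 624.7 and 484.3 CPM. Both overlapped, with log2 fold changes of -0.15 ± 0.12 for Aldoa and -0.13 ± 0.12 for Tpi1 (SE). Per kilobase, Aldoa was the highest member in both groups, at 630.0 ± 81.0 and 567.3 ± 59.2 CPM per kb (SD, n = 3 each). The annotation has 2 gene models with the symbol Aldoa, and which of them the row counts cannot be told from the row.

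After the block, Pkm, the pyruvate kinase of brain and muscle, was at 1197.4, 1117.5 and 1016.0 CPM in the GFP libraries and at 1145.6, 1163.6 and 1004.7 CPM in the Kmt5b shRNA libraries. The groups overlapped fully, with a log2 fold change of -0.01 ± 0.11 (SE, edgeR adjusted p = 0.987). Its main copy, Gm6560 on chromosome 5, nonetheless fell from 102.9 ± 10.1 to 9.79 ± 0.903 CPM (SD, n = 3 each). Copies took 8.93% ± 0.574 of the counts on Pkm and its copies in the GFP libraries against 0.982% ± 0.0501, and with them added the log2 fold change of Pkm was -0.14 ± 0.11 (SE, edgeR adjusted p = 0.673). Eno2, the enolase of neurons, was at 945.2, 731.2 and 816.4 CPM against 795.3, 842.3 and 719.1 CPM. It overlapped between the groups, unlike Eno1, and has no intronless copy.

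Along the pathway, levels per kilobase show where the rows of the gene stood against their neighbours. In the GFP libraries Tpi1 was at 220.6 and Pkm at 222.0 ± 18.2 CPM per kb, while between them in the pathway Gapdh was at 3.50, Pgk1 at 21.9 ± 2.45, Pgam1 at 18.7 ± 2.78 and Eno1 at 46.3 ± 4.44 CPM per kb (SD, n = 3). In the Kmt5b shRNA libraries the same 4 genes were at 21.7, 141.7 ± 17.2, 74.3 ± 9.50 and 104.4 ± 12.9 CPM per kb, and Pkm at 220.9 ± 17.4 CPM per kb. The 4 genes thus stood below Tpi1 and Pkm, the steps next to them, in both groups, and by more in the GFP libraries.

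The lactate dehydrogenases Ldha and Ldhb did not pass the test. Ldha, the form that favours lactate, lay between 308.1 and 380.4 CPM in the GFP libraries and between 283.7 and 374.9 CPM in the Kmt5b shRNA libraries. Ldhb, the form that favours pyruvate, was at 306.8, 267.3 and 266.1 CPM against 321.4, 322.1 and 293.3 CPM, a log2 fold change of 0.16 ± 0.10 (SE, edgeR adjusted p = 0.50). With its copy added this was 0.05 ± 0.10 (SE, edgeR adjusted p = 0.901). That copy, Gm5514 (chr19:21937380-21938381, plus strand), fell from 18.7 ± 1.24 to 0.407 ± 0.293 CPM (SD, n = 3 each), and a stretch of both from GENCODE M21 is shown as a case where scattered differences, in capitals, separate gene and copy.
Ldhb 10 to 99: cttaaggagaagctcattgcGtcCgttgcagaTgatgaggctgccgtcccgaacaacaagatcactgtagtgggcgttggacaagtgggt
Gm5514: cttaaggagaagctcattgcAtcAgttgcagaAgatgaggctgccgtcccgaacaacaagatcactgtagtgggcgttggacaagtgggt

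Of the monocarboxylate transporters, Slc16a7, the form with high affinity that neurons use, lies on chromosome 10 from 125219270 to 125389465 (minus strand). It was at 100.6, 89.2 and 94.8 CPM in the GFP libraries and at 115.0, 131.7 and 121.5 CPM in the Kmt5b shRNA libraries. The groups did not overlap, and the rise was 1.29-fold with a 95% interval from 1.12 to 1.49 (log2 fold change 0.37 ± 0.10 (SE), edgeR adjusted p = 0.0232). Slc16a7 has no intronless copy, but its call depended on the rest of the table and on single libraries. The edgeR adjusted p was 0.0739 when copies were added to their parents over the whole table and 0.0719 among genes that share no sequence. Leaving out GFP replicate 2 or 3 gave 0.0789 or 0.0766, and leaving out Kmt5b shRNA replicate 1 or 2 gave 0.0518 or 0.0979, with log2 fold changes from 0.32 to 0.42.

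Slc16a1, the transporter of vessels and glia, was at 77.6, 81.5 and 81.7 CPM in the GFP libraries and at 64.9, 73.8 and 74.1 CPM in the Kmt5b shRNA libraries. The Kmt5b shRNA libraries were all lower, but the log2 fold change of -0.18 ± 0.09 did not pass (SE, edgeR adjusted p = 0.378). Slc16a3, the lactate exporter of highly glycolytic cells, was the lowest member also per kilobase, at 3.44 to 5.41 CPM, or 147 to 394 counts, and overlapped.

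The pyruvate dehydrogenase complex links glycolysis to the TCA cycle. Pdha1, its catalytic alpha subunit, was at 226.6, 212.3 and 189.5 CPM in the GFP libraries and at 188.4, 228.7 and 181.0 CPM in the Kmt5b shRNA libraries, with overlap. Pdhb, the beta subunit, was at 90, 87.6 and 79.8 CPM against 93.0, 106.1 and 93.2 CPM, with all Kmt5b shRNA libraries higher and a log2 fold change of 0.18 ± 0.10 (SE, edgeR adjusted p = 0.380). Its copy Gm6123 fell from 11.3 ± 0.903 to 0.515 ± 0.152 CPM, and with it added Pdhb was at 97.6 ± 6.26 against 97.4 ± 7.64 CPM (SD, n = 3 each). The order of the groups was thus lost on that sum. Dlat and Dld, the acetyl transfer and lipoamide regeneration subunits, lay between 83.1 and 125.2 CPM and between 103.6 and 135.7 CPM, and overlapped.

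The pyruvate dehydrogenase kinases switch the complex off by phosphorylation. Pdk4, the form induced in fasting, on chromosome 6 from 5483351 to 5496309 (minus strand), was at 8.61, 11.2 and 6.95 CPM in the GFP libraries and at 5.82, 6.82 and 4.65 CPM in the Kmt5b shRNA libraries. The highest Kmt5b shRNA library lay just under the lowest GFP library, and the log2 fold change came to -0.62 ± 0.20 (SE, edgeR adjusted p = 0.0735). With the replicate number as a block the adjusted p of Pdk4 was 0.0192, without GFP replicate 3 it was 0.0273, without Kmt5b shRNA replicate 2 it was 0.0456, and with DESeq2 it was 0.0316. Pdk2 was at 36.2, 50.7 and 35.1 CPM against 34.7, 29.7 and 30.3 CPM, a log2 fold change of -0.36 ± 0.13 (SE, edgeR adjusted p = 0.148). Its groups did not overlap but were separated by little, and GFP replicate 2 stood above the rest. Pdk1, at 14.3 ± 1.74 CPM per kb in the GFP libraries beside 12.9 ± 2.75 for Pdk2 (SD, n = 3), lay between 97.5 and 124.5 CPM and overlapped.

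The enzymes of TCA entry stayed within the spread of the libraries. Pcx, pyruvate carboxylase, which refills the cycle in astrocytes, was at 69.8, 68.9 and 69.8 CPM in the GFP libraries and at 73.8, 66.5 and 70.5 CPM in the Kmt5b shRNA libraries, with a log2 fold change of 0.01 and a 95% interval from -0.18 to 0.21. Cs, citrate synthase, had a log2 fold change of -0.09 ± 0.11, and Idh3a, the alpha subunit of the NAD-dependent isocitrate dehydrogenase, of -0.12 ± 0.11 (SE). Mdh1 and Mdh2, the cytosolic and mitochondrial malate dehydrogenases, had -0.07 ± 0.13 and -0.10 ± 0.10 (SE). All 4 overlapped between the groups, and the 37 mitochondrially encoded rows held 0 counts in every library, so that genome is not analysed here.

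Among the 29 members that did not pass, log2 fold changes ran from -0.62 for Pdk4 to 0.32 for Gpi1. Their order between libraries of a group was shared: GFP replicate 1 was the highest GFP library for 21 of the 29, Kmt5b shRNA replicate 2 the highest of its group for 22 and Kmt5b shRNA replicate 3 the lowest for 22. The same libraries thus tended to be high or low for most members within a group, and the part of this in the differences between the groups was not tested. This order was not counted over all rows tested, so it is not shown to be particular to these members.

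Copies were found for 12 of the 34 members, and the share of counts on them was lower in every Kmt5b shRNA library than in every GFP library for all 12. The shares went from 11.6% ± 0.246 to 0.521% ± 0.112 for Pdhb, from 6.26% ± 0.356 to 0.133% ± 0.101 for Ldhb and from 4.03% ± 0.859 to 1.67% ± 0.379 for Ldha (SD, n = 3 each). For Tpi1 they were 1.87% ± 0.208 and 0.639% ± 0.0446, for Aldoa 0.986% ± 0.0869 and 0.0340% ± 0.0140, and for Cs 0.773% ± 0.0922 and 0.231% ± 0.0274. This order thus held also where copies took few counts. The most abundant copies of these last 4 and of Eno1 all fell, with log2 fold changes of -1.5 for Ldha-ps2 (Ldha), -1.69 for Tpi-rs11 (Tpi1), -5.80 for Aldoart1 (Aldoa), -3.85 for Csl (Cs) and -5.20 for Gm8483 (Eno1), and edgeR adjusted p of 0.000402, 2.68e-06, 8.46e-10, 1.56e-05 and 1.22e-07. Of 31 tested copies of members other than Gapdh, 23 fell and 0 rose at an edgeR adjusted p under 0.05. Their median log2 fold change was -2.73. With an unadjusted p under 0.05, 1 was higher, and DESeq2 called 0 higher. Among all 24419 rows, 5.69% were called lower and 2.77% higher. Once copies were added to their parents, 1.33% of 22594 rows were called lower. The same shares were not computed over all intronless copies or all 1915 parent genes, so neither pattern is shown to be particular to these members.

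**Figure D3:**
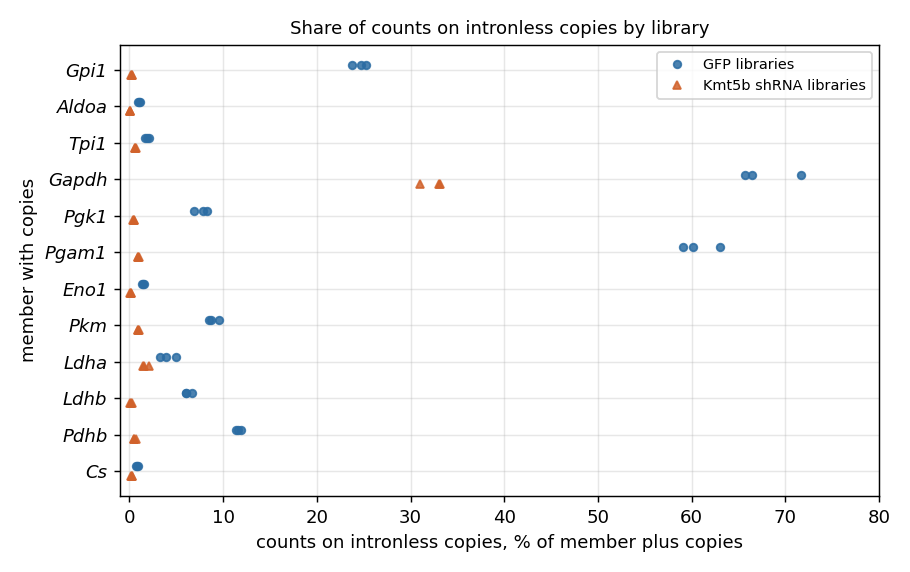
Counts on intronless copies as a percentage of the counts on the gene plus its copies, in each library, for the 12 genes with copies. Every triangle (Kmt5b shRNA) lies left of every circle (GFP), and Gapdh alone keeps a large share in both groups, at 68.0% and 32.4%.

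**Figure D4:**
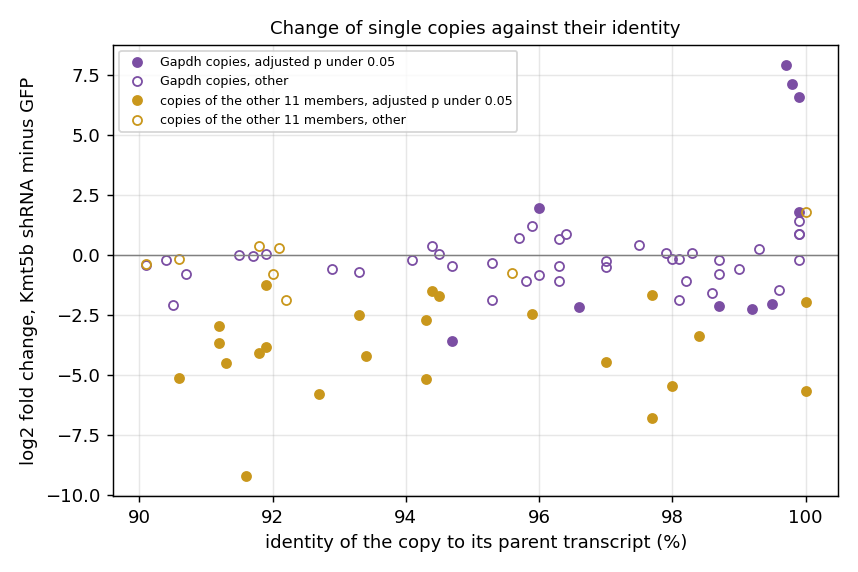
Log2 fold change, Kmt5b shRNA minus GFP, of each of 83 tested copies against its identity to the parent transcript in percent, for Gapdh (purple) and the other 11 genes (gold), filled where the edgeR adjusted p was under 0.05. Copies of the other 11 genes lie mostly below 0 across the whole range of identity, while copies of Gapdh lie on both sides of 0; the highest point, Gm2574, had no count in any GFP library, so its height depends on the fit's prior count.

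With copies added to their parents over the whole table, 4 members rose and 0 fell (edgeR, 34 tested), with 1.23% of all 22594 rows called higher and 1.33% lower. They were Gapdh, Pgk1, Pgam1 and Eno1. At an unadjusted p under 0.05, 5 members were higher and 3 lower, and DESeq2 on these sums called 5 higher and 1 lower. The median of the members was -0.09, against -0.02 over all rows of that fit. Among protein-coding genes that share no sequence with another gene, 20 members could be tested and 0 rose or fell, with 1 higher and 3 lower at an unadjusted p under 0.05; DESeq2 was not run on that set. In that fit 0.408% of 13001 genes were called higher and 0.208% lower, and the median log2 fold change was -0.09 for the 20 members and -0.01 for all genes of the fit. Gapdh, Pgk1, Pgam1 and Eno1 are not among the 20, because they share sequence with their copies.

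Ratios between isozymes were compared within each library, where scaling cancels. Of 11 pairs, 4 did not overlap between the groups. Among these, Pfkp/Pfkm and Pfkl/Pfkm share Pfkm and are not separate observations, and Eno2/Eno1 contains the change of Eno1 given above. The log2 ratio of Eno2 to Eno1 was 1.77, 1.61 and 1.82 with GFP, against 0.48, 0.43 and 0.56 with the hairpin, a difference of -1.24 that was -1.23 with intronless copies added. With the wider definition of copies, which takes in Eno1b and Gm4735, the difference was -0.83 and the groups still did not overlap. Per kilobase, the row of Eno2 was at 3.81 ± 0.293 times that of Eno1 in the GFP libraries and at 1.61 ± 0.0742 times in the Kmt5b shRNA group (SD, n = 3 each). On these rows the neuronal form thus led in both groups. With the wider definition of copies the log2 ratio was smaller, at 1.34, 1.18 and 1.4 with GFP and 0.46, 0.42 and 0.55 with the hairpin. The size of the lead is therefore uncertain, as is the level of Eno1.

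The log2 ratio of Slc16a7 to Slc16a1 was 0.37, 0.13 and 0.21 with GFP, against 0.83, 0.83 and 0.71 with the hairpin, higher by 0.55. That of Pfkp to Pfkm was 0.22, 0.13 and 0.13 against 0.46, 0.44 and 0.60, higher by 0.34, and that of Pfkl to Pfkm was higher by 0.26. None of these 3 pairs has intronless copies, and their values were the same to 2 decimals with copies added. Each of the 4 pairs had a two-sided exact permutation p of 0.1, the smallest that 3 against 3 libraries allow, and a Benjamini-Hochberg adjusted value of 0.275 over the 11 pairs. The other 7 pairs overlapped: Ldhb to Ldha differed by 0.18, Pdk1 to Pdk2 by 0.29, Pdk4 to Pdk2 by -0.27, Hk2 to Hk1 by -0.12, Slc16a3 to Slc16a1 by 0.08, Pfkfb3 to Pfkfb2 by 0.08 and Mdh2 to Mdh1 by -0.04 on the log2 scale.

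**Figure D5:**
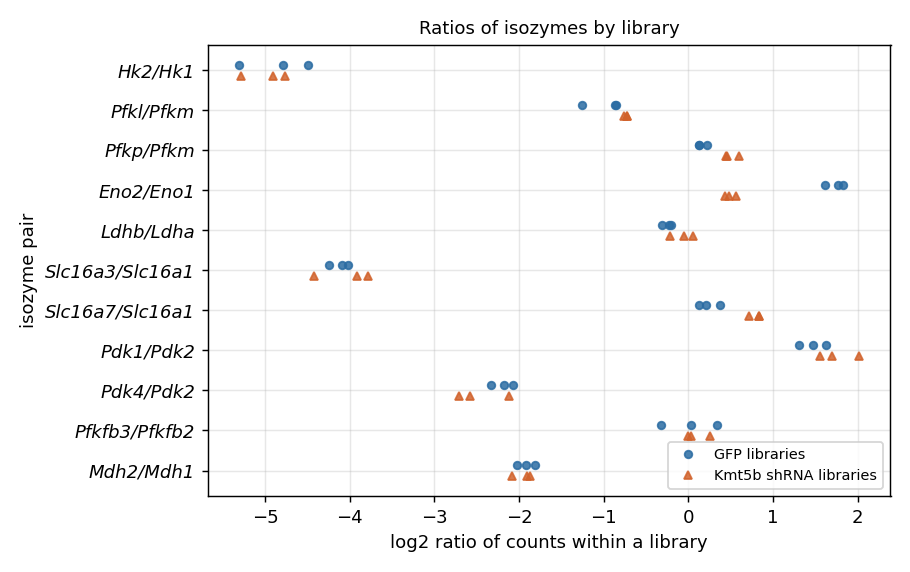
Log2 ratio of the counts of 2 isozymes within each library, for 11 pairs, in GFP (circles) and Kmt5b shRNA libraries (triangles). The pair Eno2/Eno1 is the one with a wide gap, from 1.61 or more in GFP to 0.56 or less in Kmt5b shRNA libraries, and Slc16a7/Slc16a1, Pfkp/Pfkm and Pfkl/Pfkm have small gaps.

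Around these genes, a list of 69 other genes of glucose metabolism gave 65 tested, with 4 higher and 1 lower over all rows (edgeR). Their median log2 fold change was -0.07. The shares called among all rows tested were 2.77% higher and 5.69% lower. Mpc1, a subunit of the carrier that brings pyruvate into mitochondria, was at 12.2, 11.8 and 11.1 CPM in the GFP libraries and at 26.8, 26.1 and 25.3 CPM in the Kmt5b shRNA libraries (log2 fold change 1.15 ± 0.11 (SE), edgeR adjusted p = 1.12e-06). With its copies added Mpc1 was at 47.9 ± 4.41 against 41.1 ± 1.13 CPM (SD, n = 3 each), so the direction turned there too (log2 fold change -0.22, edgeR adjusted p = 0.362). The others that rose were the NADP-linked enzymes Me1 (0.51, edgeR adjusted p = 0.00482) and Idh2 (0.39, edgeR adjusted p = 0.0357) and the mitochondrial Pck2 (0.38, edgeR adjusted p = 0.0309). With copies added 0 of the 65 rose, although 3 were higher at an unadjusted p under 0.05 and 3 by DESeq2. The log2 fold changes were then 0.37 for Idh2, Pck2 and Me1 alike (edgeR adjusted p = 0.102, 0.0911 and 0.1), so those of Idh2 and Pck2 hardly moved.

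The gene that fell was Pygm, glycogen phosphorylase, at 19.3, 19.0 and 17.8 CPM in the GFP libraries and 14.0, 12.9 and 9.57 CPM in the Kmt5b shRNA libraries. Its groups did not overlap, the log2 fold change came to -0.63 ± 0.14 (SE, edgeR adjusted p = 0.00771), and it fell in the fit with copies added as well (edgeR adjusted p = 0.0215). Among genes sharing no sequence its log2 fold change was again -0.63, but the call was lost (edgeR adjusted p = 0.0583). Beside the values of genes used in glia, 8 astrocyte markers summed to 4239.5 to 4413.8 CPM in the GFP libraries and to 3705.8 to 4161.7 CPM in the Kmt5b shRNA libraries, with none at 0. Of these 8, Aqp4 and Gja1 fell (edgeR adjusted p = 0.00178 and 0.0114), 2 had a log2 fold change above 0, namely Gfap at 0.39 and Sox9 at 0.26, and the median was -0.14. The sums of 8 oligodendrocyte markers were wide, from 2810.2 to 4307.3 CPM against 1553.4 to 3275.3 CPM. Their median log2 fold change was -0.41, none of the 8 was above 0 and none was called; of these, Mog did not overlap between the groups (39.2 ± 4.12 CPM with GFP and 23.8 ± 7.81 with the hairpin, SD, n = 3 each, not called by edgeR at an adjusted p of 0.142). The sums of 8 neuron markers overlapped. Of 8 endothelial markers, 7 had a log2 fold change above 0, with a median of 0.04. Of 8 microglia markers, 3 were above 0, with a median of -0.04, and none of either list was called. The part of these markers in the values of Pygm, Pdk4, Slc16a1 and Slc16a7 was not tested.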

How the data were processed

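The authors deposited whole-number read counts per gene symbol, 1 table per library, and the labels gave 3 GFP and 3 Kmt5b shRNA libraries of prefrontal cortex. The submitters' processing notes name STAR, featureCounts and DESeq2, with mm10 as the build. Per the labels' protocols, stranded ribosome-depleted libraries were aligned by TopHat2 to RefSeq mRNAs after trimming by Cutadapt. These name different aligners, and how reads matching several places were counted is not given in the sources used here, so the split of counts between a gene and its copies is uncertain. Neither source says which libraries each pipeline was used on.

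Counts were tested with edgeR 4.0.16 (filterByExpr, TMM, robust quasi-likelihood fit with legacy=TRUE) in R 4.3.3, with limma 3.58.1 installed, and p-values were adjusted by Benjamini-Hochberg over all rows tested, with a threshold of 0.05. The SE follows from the log2 fold change and its F statistic, and intervals are at 95%. No count was 0 for a member. GENCODE M21 transcripts were matched against themselves with BLAST+ 2.17.0, keeping matches of at least 100 bases and 90% identity. A copy is a single-exon gene matched over at least 50% of its bases by a spliced protein-coding gene elsewhere. Genes sharing no sequence have no match of 200 bases, or of 50% of their length, to another protein-coding gene or pseudogene. The genome outside the annotation was not searched. Levels per kilobase use the exonic length of M21 gene models. Coding sequences came from the principal transcript.

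The members, gene lists and tests were chosen with earlier results of these data known. All 34 members are named, with Kmt5b, the copy of each member with the highest mean over all 6 libraries, and called genes of the other lists whose groups do not overlap, up to 3 per list and direction. Alternatives were other scalings, no filter, DESeq2 1.42.0, a replicate block, each library left out, protein-coding rows only, genes sharing no sequence, copies added, and a stricter minimum of 80% for a copy. The wider definition of copies was chosen after the data were seen. It adds pseudogenes annotated with gaps and protein-coding genes of at most 2 exons that share at least 200 bases with a member. It was also used for the isozyme ratios. Replicates of a group differed by more than sampling noise (chi-square per gene of 18.2 to 45.0). Deviations of same-numbered libraries correlated at -0.03, -0.01 and 0.22, and those of differently numbered libraries at -0.2 to 0.21. The labels do not say that the numbers pair libraries, and these values cannot decide it.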

Additional observations from a re-analysis of the deposited data

How the results depend on the processing

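Gapdh, Pgk1, Pgam1 and Eno1 were called higher under every alternative that included them. The alternatives reuse the same deposited counts, so none of them tests how reads matching several places were counted. The count of higher members over all rows, 5, was 6 with upper-quartile scaling and with DESeq2 (Gpi1 joined), 4 to 6 with each library left out and 0 among genes sharing no sequence, where those 4 are absent. The count of lower members, 0, was 1 with upper-quartile scaling (Pfkm), 2 without a filter (Pdk2 and Pdk4), 1 with DESeq2 and 1 with the replicate block (both Pdk4), and 0 to 1 with a library left out (Pdk4 without GFP replicate 3 or Kmt5b shRNA replicate 2). With copies added it was 2 without a filter, 1 with DESeq2 and 1 with the replicate block. The replicate numbers are not stated to pair the libraries, and the replicate block left the higher members at 5.

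Of the other pathway genes, the 4 higher were 2 to 4 with a library left out (2 without GFP replicate 3, or without replicate 1 or 3 of the Kmt5b shRNA group), 2 among protein-coding rows, and 0 with copies added or among genes sharing no sequence. The 1 lower was 2 without a filter, 1 to 2 with a library left out (2 without Kmt5b shRNA replicate 2) and 0 among genes sharing no sequence, where Pygm lost its call.

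Log2 fold changes that changed sign with a library left out ranged from -0.08 to 0.01 for Hk1, -0.17 to 0.03 for Pfkl, -0.04 to 0.08 for Pfkp, -0.16 to 0.02 for Eno2, -0.07 to 0.07 for Pkm, -0.12 to 0.09 for Ldha (-0.17 to 0.04 with copies added), -0.25 to 0.07 for Slc16a3, -0.18 to 0.00 for Pdha1, -0.02 to 0.16 for Dld, -0.15 to 0.03 for Pdk1, -0.13 to 0.04 for Pfkfb3, -0.02 to 0.05 for Pcx, -0.19 to 0.08 for Mdh1 and -0.07 to 0.04 for Pdhb with copies added. Ratio differences ranged from -0.34 to 0.06 for Hk2/Hk1, -0.05 to 0.27 for Slc16a3/Slc16a1, -0.09 to 0.24 for Pfkfb3/Pfkfb2 and -0.09 to 0.02 for Mdh2/Mdh1. With RLE scaling and with DESeq2, Pkm, and Pdhb with copies added, were at 0.00. Pcx was at -0.00 with upper-quartile scaling. With copies added, Gpi1 was at -0.10 and Pdhb and Pcx at -0.00. None of these sign changes is of a called value.

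Across all alternatives, 567 log2 fold changes kept their direction and their side of the threshold, and 34 changed sign. A further 6 lost the call, all of Slc16a7, and 11 gained one. The cause of these differences was not tested. With 3 libraries a group no permutation test can go below 0.1, and reads that match a gene and its copy equally cannot be placed by any setting here.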
